A study of Saccharomyces cerevisiae with 8 samples.

Results

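The nuclear genes for leucine and serine tRNAs of budding yeast, Saccharomyces cerevisiae, were followed on 8 arrays that measured 4 proteins that work with RNA polymerase III (Pol III) by chromatin immunoprecipitation. A feature belonged to the set when its name began with iTL( or iTS(, which gave 35 of the 6399 array features. They stood for 34 genes, since the serine gene tS(UGA)E had 2 features. Leucine had 19 features and serine 16. All 35 had a value on all 8 arrays. The choice used the names and no measured value. In a gene name the first letter after the t is the amino acid, the letters in brackets are the anticodon, and the last letter is the chromosome, with A for chromosome I. The only serine gene with the anticodon CGA, tS(CGA)C, was not analysed here.

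Each protein was measured after 30 min of rapamycin at 0.2 ng per µl and in untreated cells (0 min), in exponential growth in rich YPD medium. Rapamycin inhibits the TOR kinase complex 1. Bdp1 and Brf1, subunits of TFIIIB, and Tau95, a subunit of TFIIIC, carried a myc tag, and C160, the largest subunit of the polymerase, carried an HA tag. Per the labels, both channels of every array held immunoprecipitated DNA, with wild-type DNA in Cy5 and DNA of a strain deleted for MAF1 in Cy3. MAF1 encodes the general repressor of Pol III. The labels give DNA of 2 immunoprecipitations on a slide and experiments in triplicate, and the authors' table gives each of the 8 groups a single log2 value per feature. In this text, array stands for the deposited values of 1 group, which may combine several slides. The source name of each sample gives ChIP in a wild-type (WT) context. The values were taken as relative brightness. Whether they stand for wild type alone, and what their denominator is, are both not given in the sources used here. With 1 sample in each group no difference has a replicate check, and no p-value was computed. Levels of different proteins lie on the scales of different arrays. In a culture, fewer cells with a bound gene and weaker binding in each cell cannot be told apart.

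Pol III reads tRNA genes from a promoter that lies inside the gene. TFIIIC binds its A box and B box and brings TFIIIB to the DNA just upstream, and TFIIIB in turn recruits the polymerase, with Brf1 in contact with it and Bdp1 completing the bound factor. The tRNAs for leucine and serine are the class with a long variable arm between the anticodon stem and the T arm, so that the A box and the B box lie further apart in their genes than in those of other tRNAs. Several of these genes also carry a short intron beside the anticodon, which widens the gap again. From textbook knowledge the families with an intron are tL(CAA), tL(UAG), tS(GCU) and tS(CGA), and those without are tL(UAA), tL(GAG), tS(AGA) and tS(UGA). On the array, 15 features belonged to intron-bearing families and 20 to the others. RefSeq's gene table for R64 lists 18 nuclear tRNA genes of the lengths that intron-bearing leucine and serine genes have, and 22 of 82 to 84 bases, the lengths of those without an intron. The 10 longest of the 18 lie on the same chromosomes, with the same number on each, as the 10 tL(CAA) features.

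The features were bright for all 4 proteins, both with rapamycin and without. At 30 min their median (n = 35) was 3.34 (Bdp1), 2.60 (Brf1), 2.69 (C160) and 2.16 (Tau95). In untreated cells it was 3.62, 3.06, 3.27 and 2.13 in that order. The 215 other nuclear tRNA features, of which 206 to 210 had a value, had medians of 2.89, 2.23, 2.35 and 2.33 at 30 min and of 3.24, 3.06, 2.93 and 1.99 at 0 min. All features of an array had medians between -0.08 and 0.17. A value of 1 or more, which is 2-fold above the submitters' zero point, was reached at 33 (Bdp1), 28 (Brf1), 32 (C160) and 32 (Tau95) of the 35 features at 30 min. Over all features 29.5%, 27.8%, 25.4% and 27.9% did so. In untreated cells the counts were 33, 33, 33 and 30, against 28.8%, 22.7%, 22.9% and 25.9% of all features. Brf1 was the protein with the largest fall in the number of bright features at 30 min.

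Brightness differed widely within the class. The leucine gene tL(CAA)A was the brightest by its mean over the untreated arrays, with 6.59 (Bdp1), 5.09 (Brf1), 5.53 (C160) and 4.52 (Tau95) at 30 min and 6.54, 5.0, 5.84 and 5.13 at 0 min. Among all features of the untreated arrays it ranked 5 (Bdp1), 34 (Brf1), 14 (C160) and 15 (Tau95). The serine gene tS(AGA)J had 5.77 (Bdp1), 4.78 (Brf1), 5.27 (C160) and 4.91 (Tau95) at 30 min, against 5.92, 5.23, 5.22 and 4.71 at 0 min, so that it was bright on every array. The third was tL(CAA)D, at 5.82 (Bdp1), 3.24 (Brf1), 3.79 (C160) and 4.10 (Tau95) with rapamycin and 5.99, 4.74, 5.36 and 3.77 without. At this gene Brf1 and C160 were lower at 30 min, while the changes of Bdp1 and Tau95 were -0.16 and 0.33.

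Other genes of the class were dim. The feature of tS(AGA)H lay below zero on all 8 arrays, at -1.48 (Bdp1), -0.28 (Brf1), -1.32 (C160) and -0.62 (Tau95) at 30 min and -1.05, -0.15, -0.93 and -1.31 at 0 min. The feature of tS(GCU)F was near zero for Bdp1 and Tau95, with -0.21 (Bdp1), 1.10 (Brf1), 1.13 (C160) and 0.27 (Tau95) at 30 min and -0.31, 0.65, 0.28 and 0.34 at 0 min. These were the 2 features below 1 for Bdp1 at both times. No correction for the length of a region or its distance from the gene is given, so the order of brightness is no order of occupancy.

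The 2 features of tS(UGA)E differed from each other. The feature tS(UGA)E-0 had 4.55 (Bdp1), 2.60 (Brf1), 1.24 (C160) and 1.93 (Tau95) at 30 min and 5.77, 2.91, 3.10 and 1.84 at 0 min. The feature tS(UGA)E-1 had 2.45, 0.94, 1.06 and 1.60 at 30 min and 2.35, 1.01, 1.26 and 0.76 at 0 min, in the same order. The first was brighter than the second on all 8 arrays, although both carry the name of 1 gene.

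**Figure D1:**
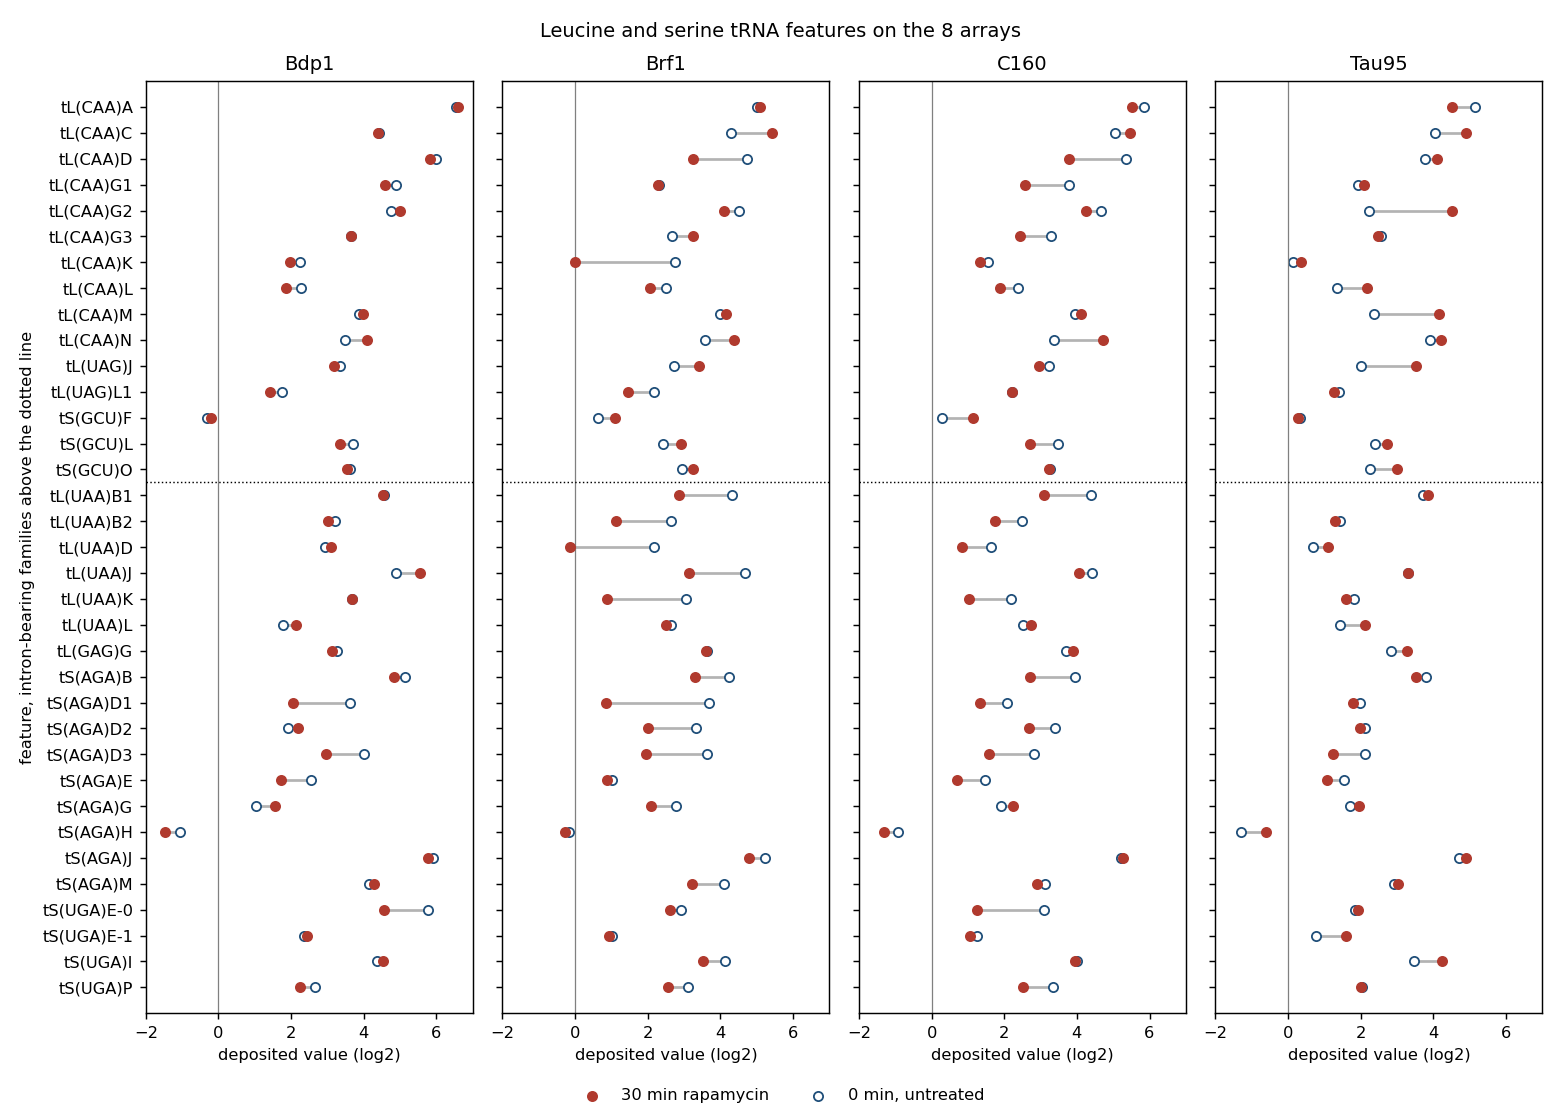
Deposited log2 value (horizontal axis) of each leucine and serine tRNA feature (rows) for Bdp1, Brf1, C160 and Tau95, with filled points for 30 min of rapamycin and open points for untreated cells. Each point is 1 deposited value. For Brf1, all 20 features below the dotted line (families without an intron) are lower at 30 min, against 6 of the 15 above it. Over all features 52.1% are lower. With equal spread of the features outside the Pol III class, 14 of the 15 are lower.

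With rapamycin, Brf1 and C160 were lower at most leucine and serine features, Bdp1 was nearly level and Tau95 moved no more than the array as a whole. The median change, 30 min minus 0 min, was -0.43 with Brf1 (quartiles -1.40 and 0.03), -0.39 for C160 (-0.82 and -0.01), -0.09 for Bdp1 (-0.32 and 0.13) and 0.20 for Tau95 (-0.10 and 0.69), each over 35 features. As ratios these are 0.741, 0.763, 0.940 and 1.15. Over all features of the arrays the median change was -0.03, 0.09, 0.04 and 0.19 in the same order. When each array was centred on the median of all its features, the change of every feature shifted by -0.10 (Brf1), -0.08 (C160), -0.02 (Bdp1) and -0.12 (Tau95), and the class had -0.53, -0.47, -0.11 and 0.081.

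A value 2-fold lower or more at 30 min was found at 3 of the 35 features for Bdp1, where 2.72% of all features passed this limit. For Brf1 there were 10 of 35, against 7.1% of all features, and for C160 there were 7 of 35, against 2.17%. For Tau95 no feature was 2-fold lower, against 1.81% of all features. A value 2-fold higher was found at 0 features with Bdp1 (0.777% of all features), at 1 with Brf1 (5.28%), at 1 with C160 (3.36%) and at 3 with Tau95 (6.87%). A change of any size downward was found at 21 features for Bdp1, 26 for Brf1 and 26 for C160, where 45.2%, 52.1% and 42.1% of all features went down. Higher by any size were 14, 9 and 9, against 54.8%, 47.9% and 57.9% of all features. Tau95 was higher at 23 of 35, beside 65% of all features, and lower at 12 of 35, beside 35%. These shares lie near those of the array as a whole.

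The other nuclear tRNA features had median changes of -0.78 for Brf1 (n = 206), -0.33 for C160, -0.24 for Bdp1 and 0.28 for Tau95 (n = 210 each). The leucine and serine features thus differed from them by 0.34, -0.06, 0.15 and -0.08. For Brf1 the difference of means was 0.13, well under that of the medians. None of these differences can be set against replicates.

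Between the 2 amino acids of the class the medians lay close together for Brf1 and further apart for the other proteins. Leucine features had a median Brf1 change of -0.43 and serine features one of -0.50, with 13 of 19 and 13 of 16 lower. For C160 the medians were -0.34 for leucine and -0.55 for serine, for Bdp1 -0.02 and -0.23, and for Tau95 0.32 and 0.10. Leucine was above serine for all 4 proteins, by 0.07 for Brf1 and by 0.20 to 0.22 for the others, while by means the difference for Brf1 was -0.03. The intron-bearing features are 10 of tL(CAA), 2 of tL(UAG) and 3 of tS(GCU). Most leucine features thus bear an intron and most serine features do not, so this contrast overlaps with the split by intron given below. All 3 features with a 2-fold lower Bdp1 were serine features, where 2.72% of all features passed this limit. All 3 with a 2-fold higher Tau95 were leucine features, beside 6.87% of all features. For Tau95 the share of the class, 3 of 35, lies near that of the array.

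For Brf1 the class split by anticodon family, and with it by the intron. The 15 intron-bearing features had a median Brf1 change of 0.14 (quartiles -0.43 and 0.53), and the 20 features without an intron one of -0.79 (-1.52 and -0.27). All 20 without an intron were lower at 30 min, and 6 of the 15 with an intron, beside 52.1% of all features. Past 2-fold lower were 2 of 15 with an intron and 8 of 20 without, beside 7.1% of all features. As levels, Brf1 stood at a median of 3.25 at 30 min and 2.75 at 0 min at the intron-bearing features. At those without an intron it stood at 2.30 at 30 min and 3.22 at 0 min, so that the order of the groups turned round. The difference between the groups' median changes was 0.93. With each array scaled to equal spread of the features outside the Pol III class, a setting that lowers bright features for Brf1, it was 1.14. In that setting 14 of the 15 intron-bearing features were lower as well, so that the difference held and the sign of the intron-bearing group did not.

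For C160 the same split was smaller, with a median change of -0.27 at intron-bearing features and -0.73 at the others, and with 10 of 15 and 16 of 20 lower. For Bdp1 the medians were -0.09 and -0.09, and for Tau95 0.32 and 0.10. Among the other nuclear tRNA features, families with an intron (phenylalanine, isoleucine UAU, lysine UUU, proline UGG, tryptophan and tyrosine) had median changes of -0.11 (Bdp1), -0.43 (Brf1), -0.35 (C160) and 0.42 (Tau95). Those without an intron had -0.26, -0.81, -0.32 and 0.26. For Brf1 the difference there was 0.38 in the same direction, while the shares of features lower were close, 32 of 40 and 128 of 166. For C160 it was -0.03. An intron goes with the anticodon family in every gene, so the intron and the family cannot be told apart. The features also lie on different sides of their genes, as given below, and the part of the side was not tested.

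**Figure D2:**
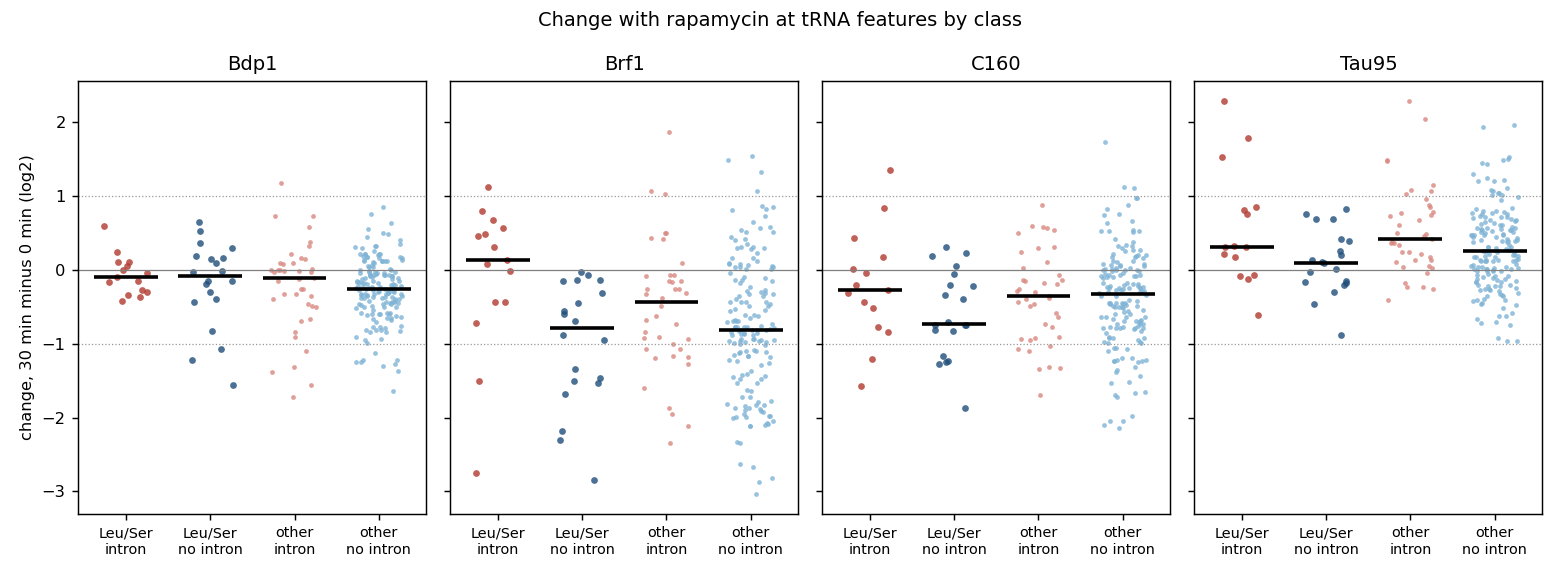
Change in deposited log2 value with rapamycin, 30 min minus 0 min (vertical axis), for each tRNA feature, split into leucine and serine features with and without an intron and other nuclear tRNA features with and without one. Black bars are medians, points are spread sideways at random, and dotted lines mark 2-fold. For Brf1 the medians of the 4 groups were 0.14, -0.79, -0.43 and -0.81.

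Family by family, the intronless leucine genes tL(UAA) had the lowest Brf1 change of the class. The 6 features had a median change of -1.52 for Brf1, from -2.30 to -0.15, with 6 of 6 lower, and of -0.79 for C160 with 5 of 6 lower. For Bdp1 and Tau95 the medians were 0.09 and 0.07. Of the 29 tRNA families with 3 or more features tL(UAA) had rank 2 from the lowest for Brf1, rank 4 for C160 and rank 27 for Bdp1. At tL(UAA), then, the 2 measured subunits of TFIIIB lay near opposite ends of the family ranks. Bdp1 itself was nearly level there, lower at 3 of 6 features.

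The 9 tS(AGA) features had median changes of -0.30 (Bdp1), -0.88 (Brf1), -0.71 (C160) and -0.16 (Tau95), and this Tau95 median was the lowest of the 29 families. Brf1 was lower at 9 of 9 and C160 at 7 of 9. The 4 tS(UGA) features, of 3 genes, had -0.15, -0.43, -0.51 and 0.43, with Brf1 and C160 lower at 4 of 4. The only tL(GAG) gene, tL(GAG)G, stood apart from these. It had 3.12 (Bdp1), 3.61 (Brf1), 3.89 (C160) and 3.26 (Tau95) at 30 min and 3.27, 3.64, 3.70 and 2.83 at 0 min, and its largest change was 0.43, that of Tau95.

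The 10 tL(CAA) features, of genes with an intron, had median changes of -0.02 (Bdp1), 0.03 (Brf1), -0.37 (C160) and 0.32 (Tau95). Brf1 was lower at 5 of 10 and C160 at 7 of 10. The 3 tS(GCU) features had -0.09, 0.46, -0.04 and 0.31, with Brf1 higher at 3 of 3, and this Brf1 median was the highest of the 29 families. With equal spread of other features Brf1 was lower at 2 of these 3, with a family median of -0.25, and at 10 of 10 tL(CAA) features, with -1.01. Centred on all features, the tL(CAA) median was -0.07. The 2 tL(UAG) features differed for Brf1, at 0.68 for tL(UAG)J and -0.71 for tL(UAG)L1.

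At single genes the values for Brf1 and C160 could be several-fold lower. At tS(AGA)D1 the values were 2.06 (Bdp1), 0.85 (Brf1), 1.33 (C160) and 1.79 (Tau95) at 30 min and 3.62, 3.70, 2.08 and 1.97 at 0 min. Both TFIIIB subunits had the lowest change of the class there, -2.85 for Brf1 and -1.56 for Bdp1, while that of Tau95 was -0.18. The gene tS(AGA)D3, on the same chromosome, had 2.95 (Bdp1), 1.94 (Brf1), 1.59 (C160) and 1.25 (Tau95) at 30 min, against 4.02, 3.62, 2.83 and 2.13 at 0 min. All 4 proteins were lower at it, and its Tau95 change of -0.88 was the lowest of the class. Of the 35 features, 6 were 2-fold lower for 2 or more proteins, where 1.86% of all features with the 4 changes and 24 of 206 other tRNA features were.

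At tL(UAA)B1, also among these 6, the values were 4.53 (Bdp1), 2.86 (Brf1), 3.10 (C160) and 3.85 (Tau95) at 30 min and 4.55, 4.32, 4.38 and 3.71 at 0 min. At tL(UAA)K they were 3.67, 0.89, 1.02 and 1.61 at 30 min and 3.69, 3.06, 2.19 and 1.82 at 0 min, in the same order. In both, Brf1 and C160 were more than 2-fold lower, while the Bdp1 changes were -0.02 and -0.02. The intron-bearing tL(CAA)D, given above, was of the same kind, with changes of -0.16, -1.50, -1.57 and 0.33. At tS(UGA)E-0 another pair was lower, with changes of -1.86 for C160, -1.22 for Bdp1 and -0.31 for Brf1. The other feature, tS(UGA)E-1, had changes of 0.10 (Bdp1), -0.07 (Brf1), -0.20 (C160) and 0.83 (Tau95).

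Brf1 alone was past 2-fold lower at 5 features, tL(CAA)K, tL(UAA)B2, tL(UAA)D, tL(UAA)J and tS(AGA)D2. The share of all features with Brf1 alone past this limit was not computed, so this count is a list only. With or without another protein, Brf1 passed it at 7.1% of all features and at 71 of 206 other tRNA features. The changes of Brf1 and C160 were -1.51 and -0.75 at tL(UAA)B2, and -1.34 and -0.71 at tS(AGA)D2, both added to the named genes after their values were seen. At tL(CAA)K the values were 1.97 (Bdp1), 0.00 (Brf1), 1.34 (C160) and 0.35 (Tau95) at 30 min and 2.25, 2.75, 1.55 and 0.13 at 0 min. Its Brf1 value of 0 at 30 min is 1 of 20 exact zeros on that array, which lacked 639 of 6399 features, more than any other. At tL(UAA)D the values were 3.11 (Bdp1), -0.13 (Brf1), 0.82 (C160) and 1.09 (Tau95) at 30 min and 2.92, 2.16, 1.64 and 0.69 at 0 min. There the change was -2.30 for Brf1 and -0.82 for C160.

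Other genes had higher values with rapamycin. At tL(CAA)C, Brf1 had the highest change of the class, 1.13, with levels of 4.38 (Bdp1), 5.43 (Brf1), 5.47 (C160) and 4.90 (Tau95) at 30 min and 4.42, 4.30, 5.04 and 4.04 at 0 min. With equal spread of the features outside the Pol III class this change was -0.13. At tL(CAA)N all 4 proteins were higher, although with equal spread its Brf1 change was -0.25. The values were 4.09 (Bdp1), 4.37 (Brf1), 4.71 (C160) and 4.22 (Tau95) at 30 min, against 3.49, 3.57, 3.36 and 3.90 at 0 min. It was the only feature of the class with C160 more than 2-fold higher, with a change of 1.35. The next for C160 was the dim tS(GCU)F, with 0.84.

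Bdp1 was never 2-fold higher. Its highest changes were 0.64 at tL(UAA)J, 0.60 at tL(CAA)N and 0.53 at tS(AGA)G. The tL(UAA)J feature had 5.54 (Bdp1), 3.15 (Brf1), 4.07 (C160) and 3.30 (Tau95) at 30 min and 4.90, 4.68, 4.41 and 3.29 at 0 min, and tS(AGA)G had 1.56, 2.09, 2.24 and 1.95 at 30 min and 1.03, 2.78, 1.92 and 1.69 at 0 min. At both of these genes Bdp1 was higher and Brf1 lower.

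For Tau95 the 3 features that were 2-fold higher were tL(CAA)G2, tL(CAA)M and tL(UAG)J, all of intron-bearing families. This share, 3 of 35, lies near the 6.87% of all features, and 27 of 210 other tRNA features passed the same limit. The tL(CAA)G2 feature had 5.0 (Bdp1), 4.09 (Brf1), 4.24 (C160) and 4.51 (Tau95) at 30 min and 4.76, 4.52, 4.68 and 2.22 at 0 min, and its Tau95 change of 2.29 stood beside Bdp1, Brf1 and C160 changes within 0.44. The tL(CAA)M feature had 3.99, 4.15, 4.12 and 4.14 at 30 min and 3.88, 4.0, 3.94 and 2.36 at 0 min. At tL(UAG)J the values were 3.19, 3.42, 2.97 and 3.53 at 30 min and 3.33, 2.74, 3.24 and 2.0 at 0 min. Brf1 was higher there too, though with equal spread its change was -0.15. The lowest Tau95 changes after tS(AGA)D3 were -0.61 at tL(CAA)A and -0.46 at tS(AGA)E. The Tau95 array at 30 min reached at most 5.61, against 7.53 at 0 min, and its part in the change of so bright a feature as tL(CAA)A was not tested. The tS(AGA)E feature had 1.73 (Bdp1), 0.88 (Brf1), 0.71 (C160) and 1.07 (Tau95) at 30 min and 2.55, 1.01, 1.46 and 1.53 at 0 min, lower for all 4 proteins.

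The proteins were then compared at the same features. The Brf1 change lay below the Tau95 change at 28 of 35 features, by a median of -0.84, and the C160 change below it at 30 of 35, by -0.75. Bdp1 lay below Tau95 at 26 of 35, by -0.36. Other tRNA features had -1.04, -0.66 and -0.59 for these differences, and all features -0.24, -0.10 and -0.16. Over all features the Brf1, C160 and Bdp1 changes lay below that of Tau95 at 3604 of 5741, 3513 of 6221 and 3535 of 5888. At other tRNA features they did so at 171 of 206, 178 of 210 and 173 of 210. Within TFIIIB, the Bdp1 change minus the Brf1 change had a median of 0.29 over the class. It was -0.20 at intron-bearing features and 0.70 at those without an intron, against 0.45 at other tRNA features. Brf1 minus C160 was -0.19 in the class, with 0.08 at intron-bearing features and -0.47 at the others. With equal spread both signs at the intron-bearing features turned, to 0.61 for Bdp1 minus Brf1 and -0.47 for Brf1 minus C160.

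Bdp1, Brf1 and C160 were all lower at 14 of the 35 features, where 14.8% of all features with values did so. This was the case at 4 of 15 intron-bearing features and 10 of 20 without an intron, and at 102 of 206 other tRNA features. C160 was lower while Brf1 was higher at 5 of the 35 features, where 16.2% of all features and 24 of 206 other tRNA features had this pattern, so that the share of the class lies near that of the array. All 5 had to be intron-bearing, since Brf1 was lower at all 20 features without an intron. The 5 were tL(CAA)A, tL(CAA)G3, tL(UAG)J, tS(GCU)L and tS(GCU)O, named after their values were seen. With arrays centred on all features 4 of them kept the pattern, since the Brf1 change of tL(CAA)A became -0.014, and with equal spread of other features none did. Across the 35 features the changes of Brf1 and C160 had a Pearson's r of 0.46 and those of Bdp1 and C160 one of 0.54, and across 206 other tRNA features 0.36 and 0.34. The features share the arrays, and these values are a description only.

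**Figure D3:**
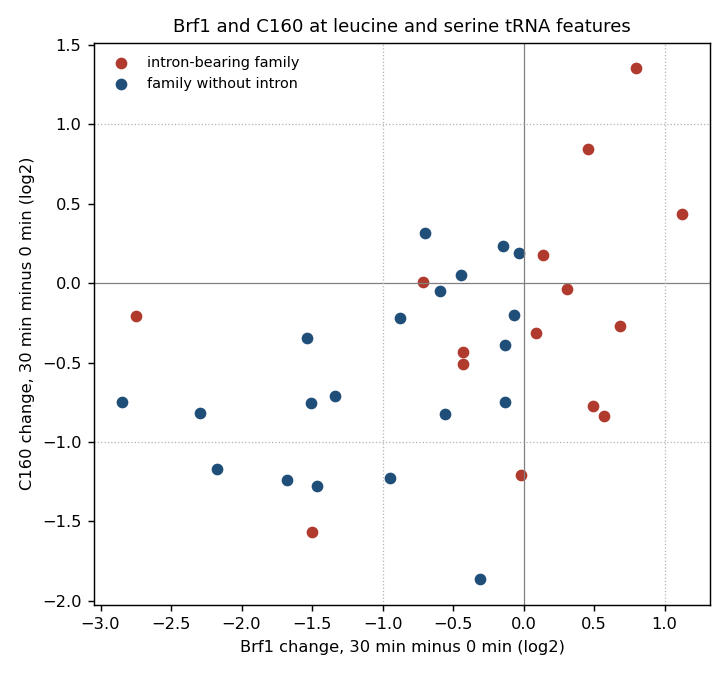
Change of C160 (vertical axis) against that of Brf1 (horizontal axis) with rapamycin, both as 30 min minus 0 min on the log2 scale, for the 35 leucine and serine tRNA features, coloured by whether the family bears an intron. Dotted lines mark 2-fold. The lower right part, with C160 lower and Brf1 higher, holds 5 of the 35 features, beside 16.2% of all array features. With equal spread of other features it holds 0. All 5 are intron-bearing, since Brf1 was lower at all 20 features without an intron.

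A feature named for a gene was read as the region on its side of higher coordinates, so that the other side of a tRNA gene is covered by the feature of the gene before it. The gene table does not pair most tRNA names with its entries, so these regions were classed by the length of the tRNA gene next to them and not by name. In all, 17 regions lay before a tRNA gene of intron-bearing length and 18 before one of 82 to 84 bases. They were bright as well, with Brf1 medians of 2.19 and 2.42 at 30 min and of 2.88 and 2.74 at 0 min. Some genes entered with both parts of a split region, and which part lies next to the gene was not checked. At genes of 82 to 84 bases the Brf1 changes of such parts were 0.55 and -0.66, and 0.12 and -2.04. At intron-bearing length they were -0.17 and -0.50. With all parts counted, the medians of these regions did not show the split seen for Brf1. Whether this holds for the nearer parts alone was not tested. The median Brf1 change was -0.34 at intron-bearing length (n = 17) and -0.22 at 82 to 84 bases (n = 17), a difference of -0.12. Yet 0 of 17 were 2-fold lower at intron-bearing length and 6 of 17 at 82 to 84 bases, where the changes ran from -3.19 to 0.97. Of the regions before other tRNA genes 62 of 192 passed this limit, and of all features 7.1%. For C160 the medians were -0.35 and -0.17, a difference of -0.17 against 0.45 at the named features. For Tau95 they were 0.44 and 0.12, and here the intron-bearing genes had the higher median on both sides. Where the region lay upstream of the tRNA gene, the median Brf1 change was -0.19 at intron-bearing length (n = 12) and -0.64 at 82 to 84 bases (n = 6), and where it lay downstream -0.81 (n = 5) and -0.22 (n = 11). Upstream regions were thus more frequent at intron-bearing length. The named feature is read as the opposite side, so at such genes it would lie downstream more often. The part of this imbalance in the Brf1 split at the named features was not tested.

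**Figure D4:**
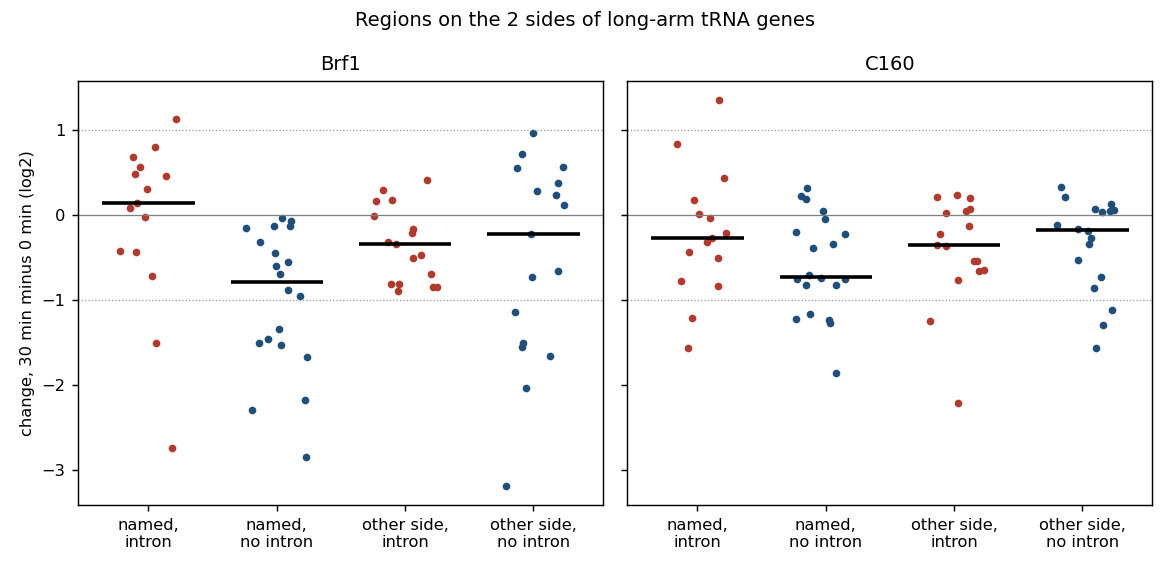
Change in log2 value with rapamycin, 30 min minus 0 min (vertical axis), of Brf1 and C160 at features named for leucine and serine tRNA genes and at regions on the other side of long-arm genes, with genes of intron-bearing families or lengths left of those without. Points are regions and black bars medians. For Brf1 the medians were 0.14 and -0.79 at the named features, and -0.34 and -0.22 on the other side. Both parts of a split region are shown and counted.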

How the data were processed

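The table holds log2 values as the authors deposited them, 1 per feature for each of 8 samples. Per the labels' design text, enrichment ratios of replicates were scaled so that loci not bound by Pol III had a median of 1. The background correction, spot filters and genome build used, not given in the sources used here, stay unknown. Base 2 was taken because 93.9% of the 2873 values below the median of the Brf1 array at 30 min lay, as antilogs of base 2, within 0.05 steps of whole multiples of 1/157. Values were missing for 117 to 639 of 6399 features per array. The precision rests on the number of deposited samples, 1 per group.

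Medians, quartiles, counts past 2-fold and differences of medians were computed with Python 3.11.15 and pandas 2.3.3, after the functions were tested on simulated data. The samples were grouped by protein and time from the labels, and no test was run. Genes were named by rule: per protein the 3 lowest and 3 highest changes, the 3 highest and 3 lowest untreated means, features 2-fold lower for 2 or more proteins, the only genes of their anticodon and any with missing values, of which there were none. Regions on the other side of a gene came from neighbours in the RefSeq table of assembly R64, classed by tRNA gene length. Both parts of a split region were kept. The members and lists were chosen with earlier results of these data known.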

Additional observations from a re-analysis of the deposited data

Results flagged for a closer look

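At the leucine and serine features the median change with rapamycin was above zero for Tau95 and below zero for each of the other 3 proteins, which put these results here. The median over features of the Tau95 change minus the Bdp1 change was 0.36. Tau95 minus Brf1 was 0.84, and Tau95 minus C160 was 0.75. The differences were not tested, since each value rests on 1 deposited sample per protein and time. The Tau95 median of 0.20 was close to that of all features, 0.19.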

How the results depend on the processing

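A median was taken as moved when it shifted by 0.1 or more on the log2 scale, and a count when it changed by more than 1.5 times, since no replicate spread exists. The 39 recomputed summary values that moved follow, and all alternatives for the intron split, the families, the protein differences and the named genes were chosen after seeing the data. Centring on all features gave levels of 3.23 for Bdp1 and 1.99 for Tau95 at 30 min, and changes of -0.53 for Brf1 and 0.081 for Tau95. With 1 value per gene the levels at 30 min were 2.70 for Brf1 and 2.32 for Tau95, and leucine minus serine for C160 was 0.36. Equal spread of other features gave changes of -1.26 (Brf1), -0.73 (C160) and 0.30 (Tau95), an intron difference of 1.14 for Brf1 and 0.34 for Tau95, 14 intron-bearing features with lower Brf1, and 0 features with C160 lower and Brf1 higher, in the class and among its intron-bearing features. It also moved the protein differences to 1.17 (Bdp1 minus Brf1), 0.40 (Bdp1 minus C160), -0.48 (Bdp1 minus Tau95), -0.77 (Brf1 minus C160), -1.70 (Brf1 minus Tau95) and -1.14 (C160 minus Tau95), and turned the Brf1 change of tL(CAA)C to -0.13. Such scaling moves bright features by construction. With the limit at 1.5-fold, 15 features were lower for C160 and 2 for Tau95, and higher were 2 (Bdp1), 3 (Brf1), 2 (C160) and 10 (Tau95). Means in place of medians gave leucine minus serine as 0.32 (Bdp1), 0.10 (C160) and 0.34 (Tau95), members minus other tRNA features as 0.13 for Brf1, and the intron difference as 0.13 for Bdp1 and 0.46 for Tau95. Leucine minus serine for Brf1 went from 0.07 to -0.03 by means, which turned its sign but is too small a shift to be among the 39. Bright features alone gave leucine minus serine as 0.38 for C160. Without tL(CAA) the intron difference was 1.24 for Brf1 and 0.69 for C160. On the other side of the genes, with both parts of split regions counted, it was -0.12 (Brf1), -0.17 (C160) and 0.32 (Tau95). The cause of these shifts was not tested.

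Limits: the alternative without members beside another tRNA gene, and the split of the named features by strand, were not run because the gene table does not pair tRNA names with its entries. No paired analysis was possible because each group holds 1 sample, and no array was left out for the same reason. Members of a family share most of their sequence, and how far their probes share signal was not tested.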
